A study of Mus musculus with 2 samples.

Results

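The olfactory receptor gene clusters of mouse chromosome 2 were examined in 2 arrays of methylated DNA immunoprecipitation (MeDIP). They were taken as all genomic probes whose start, in the mm9 build, lies in 1 of 3 blocks made up mainly of olfactory receptor genes. Block A runs from 36.1 to 37.2 Mb, block B from 85.0 to 90.3 Mb and block C from 111.0 to 112.3 Mb. The blocks hold 2245 of the 174638 genomic probes of the array (1.29%), with 216 in block A, 1687 in block B and 342 in block C. The files give positions and no gene names, so no probe was assigned to a gene.

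The cells were mouse embryonic fibroblasts (MEFs), connective tissue cells, of strain C57BL/6 from E14.5 embryos. Cells with the blood and endothelial surface proteins CD45, CD41, CD31 or c-Kit had been removed with magnetic beads, and the remainder was plated on MEF feeders blocked with mitomycin. The untreated sample received medium alone and the thymidine sample received 100 µM thymidine, the nucleoside of the base thymine, for 2 days. The source label of the thymidine sample also names a CD45 sort, its characteristics call its input thymidine-treated, and the source name of its input is plain fibroblasts. Sheared DNA of 200 to 1000 bp was precipitated with an antibody against 5-methylcytosine and labelled with Cy5, and input DNA was labelled with Cy3. Each condition had 1 array, with no dye swap. Replicate spread is therefore unknown, nothing could be tested, and each comparison describes these arrays only. Slide, scan, sort and the origin of the input cannot be told apart from the treatment, and whether feeder DNA was present in the samples is not stated in the labels.

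Olfactory receptors are G protein-coupled receptors that detect odorants in the nose. Their genes stand in large tandem clusters, each usually with a single coding exon. A mature olfactory sensory neuron expresses 1 allele of 1 of these genes, while the rest of the family is held silent in condensed chromatin. The antibody binds methylated cytosine, which in mammalian DNA sits mostly in CG dinucleotides, so the signal of a MeDIP array depends on how many CG dinucleotides a fragment holds as well as on how many of them are methylated.

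For the sequence context, RefSeq promoter windows of build GRCm38.p6 were used by gene symbol, with 250 bases before and 50 after each gene start. The gene start is that of the RefSeq gene model, which need not be a transcription start. That build differs from the mm9 positions of the probes, so these windows were not joined to probes. On chromosome 2 the RefSeq table lists 377 genes with an Olfr symbol, 90 of them pseudogenes, in 3 runs of neighbouring genes. In chromosomal order the runs hold 37 genes between Ptgs1 and Pdcl, 293 genes ahead of Ptprj, and 47 genes. Promoter windows were listed for 243 of the 377. Their median number of CG dinucleotides was 1, against 9 in 2082 other genes of chromosome 2 and 7 in all 27025 promoters. Low numbers were not particular to chromosome 2: in Olfr windows elsewhere the most frequent were 0 (229 windows) and 1 (221). The motif searched was CG, which reads the same on both strands. It was present in 64.2% of the Olfr windows and in 94.2% of all promoters. No Olfr window held 10 or more, whereas 49.4% of the other windows of chromosome 2 did. The median share of G and C was 32.7% in the Olfr windows and 54.3% in the others, and the 3 runs had medians of 35.7%, 32.0% and 33.7%.

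The range is shown by the Olfr windows with the fewest, the median and the most CG dinucleotides, and by the median window of the other genes of chromosome 2. Each is given 5′ to 3′ on the strand of its gene, with CG in capitals. In GRCm38.p6 they lie at chr2:85678692-85678991 (minus strand, Olfr1006, 0 CG), chr2:85608859-85609158 (minus strand, Olfr1000, 1 CG), chr2:88958218-88958517 (plus strand, Olfr1212, 7 CG) and chr2:19448018-19448317 (plus strand, 1810010K12Rik, 9 CG).
Olfr1006: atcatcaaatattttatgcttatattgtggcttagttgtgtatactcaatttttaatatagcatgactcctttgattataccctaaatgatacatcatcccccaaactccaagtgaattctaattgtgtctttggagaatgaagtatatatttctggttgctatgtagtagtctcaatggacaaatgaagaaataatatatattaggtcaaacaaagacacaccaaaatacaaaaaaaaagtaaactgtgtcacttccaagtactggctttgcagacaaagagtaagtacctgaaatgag
Olfr1000: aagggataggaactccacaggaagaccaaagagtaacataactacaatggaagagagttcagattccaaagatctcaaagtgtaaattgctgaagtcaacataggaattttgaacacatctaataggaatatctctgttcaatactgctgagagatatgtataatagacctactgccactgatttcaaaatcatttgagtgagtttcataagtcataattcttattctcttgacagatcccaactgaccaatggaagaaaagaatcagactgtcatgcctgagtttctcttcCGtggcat
Olfr1212: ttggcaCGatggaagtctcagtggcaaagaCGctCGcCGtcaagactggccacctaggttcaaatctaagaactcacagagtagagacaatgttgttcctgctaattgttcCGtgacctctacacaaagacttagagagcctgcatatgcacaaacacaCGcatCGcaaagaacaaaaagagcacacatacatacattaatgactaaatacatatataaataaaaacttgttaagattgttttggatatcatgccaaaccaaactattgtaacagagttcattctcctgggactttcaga
1810010K12Rik: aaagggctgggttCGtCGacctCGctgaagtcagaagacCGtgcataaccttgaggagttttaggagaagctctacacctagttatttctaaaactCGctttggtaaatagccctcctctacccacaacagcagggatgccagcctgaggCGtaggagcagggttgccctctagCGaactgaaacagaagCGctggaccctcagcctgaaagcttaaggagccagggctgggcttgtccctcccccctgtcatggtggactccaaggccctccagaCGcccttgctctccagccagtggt
The richest Olfr window thus held fewer CG dinucleotides than the median window of the other genes, and most Olfr windows held 1 or none. In the windows of Olfr1000 and Olfr1212 the 50 bases after the gene start begin with ATG. A listed gene start may therefore be a coding start, and its window may lie away from the promoter. How many windows this holds for was not tested.

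The probes of the blocks were long. The array uses probes of 45 to 60 bases. In the blocks 1176 of 2245 probes (52.4%) had 60 bases and 183 (8.15%) had 45, whereas among all other probes 12.7% had 60 and 50.5% had 45. The mean length was 54.6 bases in block A, 56.2 in block B and 55.2 in block C. In the flanks, taken as 1 Mb on each side of a block, it was 48.5, 49.2 and 52.4 bases. The step from flank to block was thus smaller at block C. Within the blocks length was uneven: the last 100 kb of block A had a mean of 50.2 bases, and the last full 250 kb bin of block C 50.3.

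The blocks were also dim. The spot signal in the input channel was a median of 4.0 times the local background in untreated cells and 4.09 times in thymidine-treated cells, against 10.2 and 10.96 times at all other probes. In the precipitate channel it was 1.93 and 1.78 times, against 6.03 and 5.05 times. The input was well above background, by the scanner software's call, at 59.6% of the block probes in untreated and 51.4% in thymidine-treated cells, where 88.8% and 82.1% of all other probes were. The precipitate passed the same call at 36.3% and 35.8% of the block probes, against 70.7% and 69.6%.

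Block B was the dimmest of the 3. Its input passed at 56.8% of probes in untreated and 48.8% in treated cells, and its precipitate at 34.1% and 33.7%. Block A had 69.9% and 60.2% for input, and 45.8% and 46.3% for precipitate. Block C lay between them, with 67.3% and 58.5% for input and 40.9% and 39.2% for precipitate. The 1 Mb flanks stood well above their blocks, at 91.2%, 88.7% and 78.7% for the untreated input of A, B and C. The lower share of the treated array in the input channel was seen in the blocks and in the rest of the array.

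For the ratios, a probe was kept when both arrays had called its input well above background and it carried no outlier flag. This left 1150 of 2245 block probes (51.2%), against 82.0% of all other probes. Of the 1095 probes left out, 914 had 60 bases, 903 were dim on both arrays, 189 on the thymidine array only and 3 on the untreated array only. The kept probes are therefore the brighter and shorter part of the blocks, with a median length of 53 bases against 60 for those left out. The numbers kept were 130 in block A, 821 in block B and 199 in block C. Of these 1150 probes, 768 also passed in the precipitate on each array, and 331 on neither. Where the precipitate did not pass, a low ratio has no measured size.

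The level of a probe is log2 of the Cy5 over the Cy3 processed signal minus the median of all kept probes of that array. The blocks had a median level of -0.32 in untreated cells (quartiles -1.06 and 0.19) and -0.33 in thymidine-treated cells (quartiles -0.90 and 0.16). A higher level means more precipitate per input. All other kept probes had a median of 0.00 on both arrays, and chromosome 2 outside the blocks had 0.03 and 0.02. Centred on array probes of their own length, the blocks stood at -0.058 and -0.11. In the authors' deposited table, over all 2245 probes, they stood at -0.062 and 0.0092 beside -0.014 and -0.019 for the others, a reversed order on the treated array. The arrays ranked the probes of the blocks alike, with a correlation of 0.94 across the 1150 probes, against 0.93 across all other kept probes. Probes of 1 array share its slide and dyes and are not independent. The base composition of the probes was not measured.

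By block, the medians were -0.22 and -0.23 in block A, -0.35 and -0.35 in block B, and -0.35 and -0.32 in block C, untreated first. The 95% binomial interval of the median, which covers the counting of probes only, ran from -0.35 to -0.05 in block A, from -0.43 to -0.24 in block B and from -0.53 to -0.20 in block C on the untreated array. The 3 intervals overlap one another. The flanks had 0.06 and 0.01 at block A, 0.05 and 0.02 at block B, and -0.04 and -0.02 at block C. With probes centred by length, the untreated median of block A turned to 0.045.

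Low probes were more frequent in the blocks and high ones less frequent. In untreated cells 304 of 1150 probes (26.4%) had a level of -1 or less, where 15% of all kept probes of the array did. In treated cells it was 255 (22.2%) against 11.3%. In the blocks 231 probes were low on both arrays. The share of all kept probes low on both was not counted, and their levels correlated between the arrays at 0.93. Of the low probes, only 22.0% in untreated and 16.9% in treated cells had a precipitate well above background, compared with 35.8% and 25.4% of the low probes elsewhere. At the other end 40 block probes (3.48%) had a level of 1 or more in untreated cells, against 7.17% of the array. In treated cells there were 47 (4.09%), against 7.6%, and 26 were high on both arrays, again without a counted share for the array.

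The channels behind these ratios were both low in the blocks. Centred on the array, the median input signal was -0.73 in untreated and -0.77 in treated cells, and the median precipitate signal was -1.10 on both. Block A had -0.38 and -0.44 for input and -0.78 and -0.66 for precipitate. Block B had -0.77 and -0.80 for input and -1.14 and -1.15 for precipitate, and block C -0.71 and -0.79 for input and -1.17 and -1.13 for precipitate. In each block the precipitate was further below the array than the input was.

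The level moved with probe length, on the whole array and less so in the blocks. Among all other probes the untreated median fell from 0.16 at 45 bases to -0.15 at 46 to 49, -0.34 at 50 to 54, -0.45 at 55 to 59 and -0.57 at 60 bases. The blocks had -0.14, -0.28, -0.31, -0.49 and -0.36 in the same classes, over 179, 209, 287, 213 and 262 probes. In treated cells the blocks had -0.23, -0.35, -0.29, -0.44 and -0.38, and the others 0.16, -0.12, -0.27, -0.38 and -0.51. Pooled, the blocks were therefore lower than the rest at the short probes, close to it between 50 and 59 bases, and higher at 60 bases. Block C was lower in the middle classes, at -0.87 and -0.71 for 50 to 54 bases (45 probes) and -1.01 and -0.70 for 55 to 59 (34 probes). Its intervals there cover the values of the others. Block A had -0.20 and -0.02, and -0.35 and -0.31, in these classes, and block B -0.30 and -0.29, and -0.45 and -0.40. Among probes measured in both channels the fall of the blocks with length was not seen: their medians from the shortest to the longest class were -0.07, -0.16, -0.04, 0.06 and 0.12 in untreated cells and -0.13, -0.16, -0.05, -0.05 and 0.08 in treated cells. The other probes measured in both channels had 0.21, 0.04, -0.02, -0.01 and 0.06, and 0.21, 0.04, -0.02, -0.02 and 0.02. Their fall was thus smaller too and ended at 50 to 54 bases. This selection uses the precipitate, which is itself part of the ratio. In untreated cells the precipitate passed at 12.7% of the 60-base block probes and at 88.0% of the 45-base ones. The smaller fall among such probes cannot be told apart from that selection.

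At 45 bases the blocks minus the others came to -0.30 log2 units in untreated and -0.38 in treated cells. The interval of the block median ran from -0.32 to -0.01 on the untreated array and from -0.32 to -0.09 on the treated array, both below 0.16. It was also present among the probes with both channels well above background, where 160 block probes had -0.07 and -0.13 beside 0.21 and 0.21 for the others and 0.22 and 0.21 for chromosome 2 outside the blocks. Block B was lowest in this class, at -0.26 and -0.31, with -0.02 and -0.08 in block A (28 probes) and -0.02 and -0.09 in block C (37 probes).

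At 60 bases the order differed. The blocks had -0.36 and -0.38 and the others -0.57 and -0.51, although the treated interval of the blocks, -0.60 to -0.30, covered the value of the others. With both channels well above background the 132 block probes of 60 bases stood at 0.12 and 0.08, and the others at 0.06 and 0.02. Those intervals of the blocks, 0.03 to 0.26 and -0.05 to 0.22, cover the values of the others, and chromosome 2 outside the blocks was above both, at 0.15 and 0.11. Only 22.3% of the 60-base probes of the blocks were kept, against 37.96% elsewhere. The dim probes left out have no measured ratio.

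Along the blocks the level was uneven. In bins of 250 kb with at least 10 kept probes, block B ranged from -0.93 to 0.12 in untreated and from -0.76 to 0.11 in treated cells over 21 bins. Its lowest bin was that from 89250000 to 89499999 and its highest that from 85750000 to 85999999, on both arrays. Of the 21 bins, 19 were below 0 in untreated and 20 in treated cells. Block A went from -0.66 in its first bin to 0.01 in the bin from 36850000 to 37099999 in untreated cells, and from -0.50 to -0.02 in treated cells. In block C the untreated range was -0.57 to -0.02 over 5 bins and the treated range -0.68 to -0.04, and all 5 bins were below 0 on each array. The bin from 112000000 to 112249999, with the highest untreated value of block C, also had the fewest 60-base probes of its bins described here, 17.0%. On the treated array the highest bin of block C was that from 111500000 to 111749999, with 48.9% of 60-base probes. The highest bin of block B had 63.6%.

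Neighbouring probes shared little of their level. For 527 pairs of kept block probes under 300 bp apart the correlation was 0.15 in untreated and 0.14 in treated cells, against 0.22 and 0.22 for the 93663 pairs elsewhere. These pairs lie within the length of 1 sheared fragment, and as probes of 1 array they are not independent.

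Tiled regions, defined as probes with starts less than 1000 bp apart, gave a view over several probes. The blocks held 301 regions, with a median of 8 probes over 1652 bp. At least 3 probes were kept in 238 of them, 62 had 1 or 2 kept probes and 1 had none. The measured share was 79.1%, compared with 97.3% of the other regions, and it was lowest in block B, at 171 of 229. Measured regions of the blocks rested on a median of 4 kept probes, and those elsewhere on 6.

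Of the 238 measured regions, 34 (14.3%) had a mean level over both arrays of -1 or less, where 4.22% of all measured regions of the array did. They were 2 of 27 in block A, 25 of 171 in block B and 7 of 40 in block C. With probes centred by length the count was 20 (8.40%), against 3.32% of the array, and among regions with at least 5 kept probes it was 8 of 92 (8.70%), against 3.59%. The order turned with normexp background correction, where 0 block regions were low against 1.36% of the array. It also turned in the authors' deposited table, where 0 were low against 2.17%. From raw median signals 1.68% of the block regions were low, against 2.43% of the array. With no filter on dim probes it was 2.68% against 3.47%, so the order turned there too. Only 14 of the 34 had both channels well above background at 50% or more of their probes, and 7 had no such probe. Levels above 0 were found in 54 regions (22.7%), against 50.7% of the array, and levels of 0.5 or more in 7 (2.94%), against 6.37%.

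The regions with the highest levels were measured in both channels at most of their probes. In block B the region from 87828975 to 87830719 had a level of 0.65 in untreated and 0.65 in treated cells over 5 probes of 48 to 57 bases, all 5 with both channels well above background. Single probes of it ran from -0.46 to 1.28 in untreated cells. The region from 85725869 to 85727299 had 0.70 and 0.56 over 4 probes. The highest of block C, from 112078830 to 112080223, had 0.41 and 0.76 over 7 probes, all measured in both channels and 45 to 54 bases long, followed by that from 111333243 to 111334754 at 0.35 and 0.22 over 3 probes. In block A they were the regions from 36851904 to 36852727, at 0.31 and 0.49 over 4 probes, and from 37073949 to 37075342, at 0.08 and 0.38 over 6. The authors' deposited table gave the same sign on both arrays for the first, at 0.27 and 0.56, but had -0.50 and -0.00074 for the region from 111333243 to 111334754.

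The lowest regions of blocks B and C rested mostly on probes with a dim precipitate. That from 88750051 to 88751434 in block B had -3.22 in untreated and -2.12 in treated cells over 3 probes, and that from 89507552 to 89509178 had -2.25 and -2.05 over 4 probes. None of these 7 probes had a precipitate well above background on either array, so these values have no measured size. In block C the regions from 111217859 to 111219518 and from 111377945 to 111379614 had -2.17 and -1.71, and -2.05 and -1.78, each with 1 probe measured in both channels. In each of them that probe was the highest one, at 0.58 and 0.57 in untreated cells, although it lay within the same 2 kb as the others. Block A had its lowest levels from 36922814 to 36924197, at -1.34 and -1.32 over 5 probes, and from 36231549 to 36232734, at -1.38 and -1.16 over 4 probes. In block A more of the probes were measured, 3 of 5 and 2 of 4 in both channels. In the first of these regions single probes ran from -3.26 to 0.54 in untreated cells, and the middle one, a measured probe of 45 bases, had -1.34 and -1.32. In the authors' deposited table, over all of its probes, the lowest region of block B was above 0, at 0.066 and 0.11, and the next stood at -0.83 and -0.46.

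The second comparison was between treated and untreated cells. The difference, thymidine minus untreated, had a median of 0.084 over the 1150 block probes, with quartiles of -0.17 and 0.34. All other kept probes had 0.066. After quantile normalisation the block median was -0.013, against 0.0037 for the others. Once the trend with level was removed it was -0.016, against 9e-05. A difference of 1 is 2-fold. By block it was 0.081 in A, 0.068 in B and 0.12 in C, and each of these was below 0 under both of those settings. The order against the other probes also depended on the processing: it was 0.024 against 0.046 with loess, 0.011 against 0.062 with no filter on dim probes and 0.098 against -0.0076 in the authors' deposited table. The flanks had 0.059, 0.049 and 0.059. The binomial interval of the block median, 0.050 to 0.11 over probes, holds the value of the other probes. Taken alone, the input signal differed by a median of 0.018 and the precipitate signal by 0.019 in the blocks, and by 0.014 and 0.012 elsewhere.

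Single probes varied more than these medians. The SD over block probes was 0.39, the scanner software's own error of a difference had a median of 0.41, and 21 probes (1.83%) differed by more than 2 such errors, where 2.95% of the array did. Of the 21, 13 were higher and 8 lower after thymidine. A difference of 1 or more was seen at 20 block probes (1.74%), against 1.07% of the array, with 15 in block B, 5 in block C and 0 in block A. A difference of -1 or less was seen at 4 (0.348%), against 0.0926%. None of these 20 and 4 probes was measured in both channels on both arrays: of the 768 that were, 0 differed by 1 or more and 0 by -1 or less, against 0.191% and 0.0457% of such probes of the array. The median difference of the 768 was 0.02.

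The difference depended on the level in the blocks as it did elsewhere. In the 107 block probes with a mean level below -2 the median difference was 0.61, and in the 5917 other probes of that class 0.48. Between -2 and -1 the medians were 0.33 and 0.31, and between -1 and -0.5 they were 0.12 and 0.15. Between -0.5 and 0 they were -0.006 and 0.03, and between 0 and 0.5 they were -0.05 and 0.00. Between 0.5 and 1 the blocks had 0.005, below the 0.02 of the others. Only at 1 and above, over 37 block probes, were they higher again, at 0.11 against 0.04. In the lowest class the input of the blocks differed by -0.50 and the precipitate by 0.01. Only 1.87% of the block probes of that class were measured in both channels, against 12.1% of the others, so the size of these differences is not measured.

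A region was counted as higher when its median difference reached 0.5 and 80% or more of its probes were higher, and as lower by the mirrored rule. Of 238 regions, 6 (2.52%) were higher, where 0.706% of all regions were, and 3 (1.26%) were lower, where 0.0558% were. Of these 9 calls, 6 came from regions of 3 or 4 kept probes. At least 5 kept probes were present in 92 of the 238 block regions and in 18401 of the 21280 other regions. Most block regions thus had 3 or 4, called or not. Among regions with at least 5 kept probes, 2 of 92 (2.17%) were higher and 1 (1.09%) lower, against 0.541% and 0.0324% of such regions. The number of higher regions was 0 after quantile normalisation (0.0697% of the array), with the level trend removed (0.0511%) and with normexp (0.0093%). That of lower regions was 3 after quantile normalisation, against 0.167% of the array, and 3 with the trend removed, against 0.181%. It was 0 with normexp or raw signals, and 1 with no filter on dim probes, with both channels measured or in the authors' deposited table.

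Block A held 2 of the higher regions. From 36422820 to 36424589 the level was -1.14 in untreated and -0.58 in treated cells, 4 of 5 probes were higher, and the difference was 0.54 (SD over probes 0.30). From 36704449 to 36706026 it was -0.37 and 0.12, all 4 probes were higher, and the difference was 0.51 (SD 0.24). The input differed by -0.06 and -0.23 in these regions and the precipitate by 0.13 and 0.13. In the authors' deposited table, whose log base is not settled, the differences were 0.089 and 0.15.

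In block C the region from 111260609 to 111261566 went from -1.77 to -1.12, a difference of 0.65 (SD 0.37), but 2 of its 3 probes had on neither array a precipitate well above background. The next highest difference of block C, from 111970473 to 111971844, was 0.41 (SD over 5 probes 0.55). In block B the 3 higher regions, named here after their values were seen, lay from 85487977 to 85489535 (0.59 over 6 probes), from 87622061 to 87623132 (0.65 over 3) and from 89165836 to 89167302 (0.59 over 3). All 3 had a mean level of -1 or less, and 3 of 6, 1 of 3 and 0 of 3 of their probes were measured in both channels. The highest differences of block B were 0.91 at the region from 88750051 to 88751434, without a measured precipitate, and 0.67 from 85171554 to 85172638, with 3 of 4 probes higher. Neither reached 80% of probes of 1 sign.

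In the 3 lower regions most probes were measured in both channels. The region of block A from 37185973 to 37187725 had 0.36 in untreated and -0.35 in treated cells over 5 probes of 45 to 54 bases, all measured in both channels. Its difference was -0.54 (SD over 5 probes 0.53), with 4 of 5 probes lower, and the authors' deposited table had -0.51. The input was higher by 0.39 in treated cells and the precipitate differed by -0.18. In block B the difference was -0.57 (SD 0.48, 3 probes) at the region from 87030812 to 87032143, with input at 0.25 and precipitate at -0.26. For this one the authors' deposited table had -0.25, and the difference was -0.10 with normexp, -0.15 from raw signals and -0.26 with no filter on dim probes. It was -0.50 (SD 0.21, 3 probes) at that from 86154950 to 86156616, with input at 0.42 and precipitate at -0.15. For the latter the authors' deposited table gave 0.011, so its direction was not kept there. The other named low differences were -0.19 from 37122192 to 37122939 in block A, and -0.26 from 111593842 to 111594744 and -0.16 from 111823754 to 111825509 in block C, where all 6 probes of the last were lower.

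Along the blocks the 250 kb bins differed by -0.03 to 0.32 in block B, by 0.03 to 0.17 in block A and by 0.04 to 0.23 in block C. The difference was above 0 in 17 of 21, 4 of 4 and 5 of 5 bins, on arrays whose median difference was 0.066. The last bin of block A, with 9 kept probes and so not among these 4, had -0.25. The highest bin of block B was its first, from 85000000 to 85249999, where the level was -0.92 in untreated and -0.63 in treated cells over 21 probes. The input of the bins of block B differed by -0.14 to 0.13, and that of block A and C by -0.01 to 0.04 and -0.01 to 0.03.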

How the data were processed

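MeDIP and input DNA of 2 samples were read on 2-colour tiling arrays, 1 array per group. Feature Extraction (Agilent, version 11.0.1.1) read the spots, per the file headers, with probe positions in build mm9. The deposited intensity values are processed signals, background-subtracted and scaled between dyes per the file headers, and the median brightness of each spot and of its surroundings. In the deposited log10 ratio column, values lay within 1e-06 of log10 of Cy5 over Cy3 processed signal at 97.4% (untreated) and 96.9% (thymidine) of probes. A series table deposited by the authors holds log ratios, read here as log2. Against raw log2 ratios they had slopes of 0.67 and 0.77 and correlations of 0.92 and 0.92, which do not settle the log base. Values and counts at cut-offs from that table may thus be on another scale than the rest. For its log base, normalisation and smoothing, the sources used here give nothing. Medians of its columns were -0.014 and -0.019.

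Control spots were left out. From the processed signals, log2(Cy5/Cy3) was centred on the median of each array's kept probes, without loess or quantile normalisation. No p-value was computed, since 1 array per group leaves no residual degrees of freedom, and the number of arrays limits the precision. Intervals of medians are 95% binomial intervals over probes. Named regions are the 2 highest and the 2 lowest of each block by mean level and by difference. The members, blocks and lists were chosen with earlier results of these data known. Normexp (limma 3.58.1, offset 50) was run on median signals, as the files used hold no mean spot signals. The alternatives also included loess (span 0.3), quantile normalisation, other filters and centrings. Python 3.11.15 and R 4.3.3 were used.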

Additional observations from a re-analysis of the deposited data

How the results depend on the processing

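The pooled level of the blocks, -0.32 in untreated and -0.33 in treated cells, moved little with quantile normalisation, centring on chromosome 2 or shortened blocks. It was -0.16 and -0.12 with normexp, -0.23 and -0.19 from raw median signals, -0.15 and -0.18 with loess, -0.15 and -0.16 with no filter on dim probes, -0.15 and -0.21 with both channels well above background, -0.058 and -0.11 centred by probe length, and -0.062 and 0.0092 in the authors' deposited table. There block B had 0.030 on the treated array, and centred by length block A had 0.045 in untreated cells. The values with no filter and with both channels well above background were each centred on the probes of that setting. Centred on all kept probes, the 768 block probes with both channels well above background stood at -0.0022 and -0.068. The others of that kind stood at 0.15 and 0.14.

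The pooled difference of 0.084 was 0.024 with loess, -0.013 after quantile normalisation, 0.011 with no filter, 0.021 with both channels measured, 0.044 centred by length, -0.016 with the level trend removed, 0.019 from the precipitate and 0.018 from the input alone. After quantile normalisation blocks A, B and C had -0.013, -0.016 and -0.0073, with the trend removed -0.020, -0.017 and -0.0081. Block B had -0.00071 with no filter and block C -0.0066 from the input alone. The region from 86154950 to 86156616 had 0.011 in the authors' deposited table.

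Low regions numbered 34 (14.3% of the block regions, against 4.22% of the array). There were 0 with normexp (1.36% of the array), 4 or 1.68% from raw signals (2.43%), 8 or 2.68% with no filter (3.47%) and 0 in the authors' table (2.17%), all below the array's share. There were 14 or 5.88% with loess (3.11%), 5 or 3.40% with both channels measured (1.68%), 20 or 8.40% centred by length (3.32%) and 8 or 8.70% with at least 5 kept probes (3.59%), all above it. The 6 higher regions became 0 with normexp (0.0093% of the array), quantile normalisation (0.0697%) or the trend removed (0.0511%). With no filter there was 1 or 0.334%, below the array's 0.478%. There were 2 or 0.840% from raw signals (0.641%), 2 with loess (0.507%) and 2 with at least 5 kept probes. There was 1 or 0.680% with both channels measured (0.387%) and 1 or 0.334% in the authors' table (0.0273%). The 3 lower regions became 0 with normexp (0.0139%) or raw signals (0.0511%), and 1 with no filter (0.0182%), both channels measured (0.0695%), the authors' table (0.0546%) or at least 5 kept probes. The cause of these changes was not tested. The number of measured block regions also changed, from 238 to 299 with no filter and 147 with both channels measured. Quantile normalisation and trend removal also took the median difference of all other probes from 0.066 to 0.0037 and 9e-05. No paired analysis was possible because each group has 1 array.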
